A study of Mus musculus with 23 samples.

Results

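Expression of beta cell glucose sensing and hormone processing genes was followed in the mouse pancreas after caerulein hyperstimulation. The set held 9 genes chosen by symbol (G6pc2, Slc2a2, Abcc8, Slc30a8, Pcsk1, Pcsk2, Mafa, Nkx6-1 and Pax6) of the 18512 gene symbols counted. All mice were C57BL/6 animals from Charles River Laboratories, aged 6 to 8 weeks, and RNA came from the head of the pancreas. The baseline group was non-injured (8 mice, 4 female and 4 male), and the labels do not say whether it received a vehicle. The other mice were given caerulein, a secretagogue that injures acinar cells when given in excess, intraperitoneally at 50 µg/kg each hour, 8 times a day on 2 days in a row. Their tissue was taken at day 7 (8 mice, 4 female and 4 male) or day 14 (7 mice, 3 female and 4 male) after injury, and each library came from 1 mouse.

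The beta cell is the insulin-producing cell of the islets of Langerhans, which make up a small share of the pancreas beside the enzyme-secreting acinar tissue. Glucose enters the rodent beta cell through the transporter encoded by Slc2a2, its metabolism raises ATP, and the ATP-sensitive potassium channel, whose sulfonylurea-binding subunit is encoded by Abcc8, then closes, so that the cell depolarises and releases insulin. G6pc2 encodes the islet glucose-6-phosphatase, which turns glucose-6-phosphate back into glucose. Inside the secretory granule, the zinc transporter encoded by Slc30a8 supplies the zinc with which insulin crystallises, and the convertases encoded by Pcsk1 and Pcsk2 cut proinsulin and other prohormones. Mafa, Nkx6-1 and Pax6 are transcription factors of mature islet cells. Several of these genes are also used outside the beta cell: Pcsk2 and Pax6 in other islet cells, Pcsk1 in enteroendocrine cells and neurons, and Slc2a2 in liver, kidney and intestine.

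Promoter sequence is shown for the 3 genes that passed the test at day 7 (G6pc2, Slc2a2 and Pcsk2). It is also shown for Pcsk1, which had the smallest day 7 estimate of the genes tested. RefSeq start sites on GRCm38.p6 were matched for 6 of the 9 genes, and the 250 bases before each start were searched on both strands for TAAT (a core bound by homeodomain factors), TGACGT (the core of the cAMP response element), CANNTG (the E box) and TGCTGA (the core bound by large Maf factors). Capitals mark TAAT and TGACGT, which read ATTA and ACGTCA where the match is on the other strand. RefSeq lists a later start as well for G6pc2 (window chr2:69219699-69219948, inside the gene) and for Pax6, and for G6pc2 the window before the gene's 5′ end is printed. The windows, all on the plus strand, are chr2:69210823-69211072 for G6pc2, chr3:28697653-28697902 for Slc2a2 and chr2:143545883-143546132 for Pcsk2. For Pcsk1, the lines give the 30-base stretches around its TGACGT matches, chr13:75089768-75089797 and chr13:75089795-75089824.
G6pc2: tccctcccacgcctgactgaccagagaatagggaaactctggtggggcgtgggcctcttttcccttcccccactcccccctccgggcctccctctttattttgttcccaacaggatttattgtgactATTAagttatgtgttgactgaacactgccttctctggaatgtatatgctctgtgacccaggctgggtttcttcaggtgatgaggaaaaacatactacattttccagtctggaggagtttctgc
Slc2a2: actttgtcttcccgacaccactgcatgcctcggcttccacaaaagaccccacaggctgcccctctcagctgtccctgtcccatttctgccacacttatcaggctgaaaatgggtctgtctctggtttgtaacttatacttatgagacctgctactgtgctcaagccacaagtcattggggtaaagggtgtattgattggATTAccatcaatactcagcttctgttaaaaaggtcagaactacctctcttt
Pcsk2: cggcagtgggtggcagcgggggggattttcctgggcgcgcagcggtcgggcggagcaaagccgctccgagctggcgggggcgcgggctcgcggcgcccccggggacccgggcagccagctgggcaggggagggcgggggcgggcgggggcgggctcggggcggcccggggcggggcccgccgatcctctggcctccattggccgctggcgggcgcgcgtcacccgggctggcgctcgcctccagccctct
Pcsk1, upstream stretch: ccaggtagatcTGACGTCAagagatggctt
Pcsk1, downstream stretch: ctttcgtcgattTGACGTgtaaacactcat
The G6pc2 and Slc2a2 windows each held 1 TAAT and 1 CANNTG match. Pcsk2 held 1 CANNTG match and no TAAT. The Pcsk1 window held 3 TGACGT matches, of which 2 were the overlapping strands of the palindrome TGACGTCA, besides 1 TAAT. None of these 4 windows held TGCTGA. The window before the later G6pc2 start held 3 TAAT, 4 CANNTG and 2 TGCTGA matches. Of 32851 windows of this length, 54.9% held TAAT, 66.2% held CANNTG, 16.1% held TGCTGA and 6.47% held TGACGT. These matches describe the letters in the windows only.

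Libraries held 7059890 to 9567446 counts, and levels are given as CPM, counts relative to a library total scaled by the trimmed mean of M-values (TMM). Of the 9 genes, 7 passed the filter on low counts and entered the test with 12195 genes in all, while Mafa and Nkx6-1 did not. The beta cell markers Ins1, Ins2 and Iapp were detected in every mouse. Because Ins1 and Ins2 are closely related copies, reads can be split between them, and their sum with Iapp was used as the hormone level. In bulk tissue, fewer cells of a type and less RNA per cell cannot be told apart. Liver transcripts stood out in 2 day 14 mice, with 3421 counts of Alb (albumin) in mouse 19 and 230 in mouse 21, against 4 to 28 counts in the other mice.

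Per kilobase of exon, the median CPM at baseline ran from G6pc2 (3.26) through Slc30a8 (2.77), Pcsk1 (2.03), Pcsk2 (1.53), Slc2a2 (0.685) and Abcc8 (0.513) to Nkx6-1 (0.156), Mafa (0.119) and Pax6 (0.114). Neighbours in this order overlapped in their baseline ranges down to Abcc8, for example 1.31 to 4.62 for G6pc2 and 0.752 to 3.82 for Slc30a8, or 0.309 to 0.833 for Slc2a2 and 0.275 to 0.968 for Abcc8, all in CPM per kilobase. The transcription factors stood apart, since the highest of their values, 0.245 for Nkx6-1, lay below the lowest value of each of the other 6 genes, and their own ranges overlapped. Exon lengths took all annotated isoforms together, so levels of genes with many isoforms, such as Pax6, are understated.

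The first comparison asked whether these genes were still altered at day 7, against baseline. All 7 tested genes had a positive log2 fold change, and 3 of them (G6pc2, Slc2a2 and Pcsk2) were called, which needed both a 1.5-fold change and an adjusted p no higher than 0.05. With scaling by the total count, 6 of the 7 were called at day 7, 4 at day 14 and 2 for day 14 against day 7, beside 30.3%, 3.67% and 3.88% of all genes. Of all genes tested, 5.13% were called and 3.82% were called higher, and 53.7% had a positive change. An unadjusted p under 0.05 was found for 5 of the 7 genes and for 32.2% of all genes. The median log2 fold change was 0.73 over the 7 genes and 0.022 over all genes. Among the 7 genes, the estimates were largest for G6pc2 and Slc2a2 and smallest for the convertase Pcsk1. Differences between genes were not tested, and the Slc2a2 estimate was close to those of Pcsk2 and Slc30a8.

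Slc2a2, the glucose transporter gene (chromosome 3, 28697903 to 28731359, plus strand), ran from 1.78 CPM through a median of 3.94 to 4.79 CPM at baseline, and from 4.87 through 6.52 to 8.96 CPM at day 7. Every day 7 mouse lay above every baseline mouse, a separation found in 1.16% of all genes tested. The log2 fold change was 0.83 (SE 0.17, adjusted p = 0.00132). The counts behind it were modest, 11 to 34 per mouse at baseline and 52 to 96 at day 7.

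G6pc2, the islet glucose-6-phosphatase gene (chromosome 2, 69211073 to 69227841, plus strand), ran from 2.59 through 6.43 to 9.13 CPM at baseline and from 8.77 through 13.8 to 36.2 CPM at day 7. In 7 of 8 day 7 mice the level was above every baseline mouse, and the mouse at 36.2 CPM stood well apart from the next at 20.2 CPM. G6pc2 had the largest change of the set, a log2 fold change of 1.45 (SE 0.31, adjusted p = 0.00271). Its paralog G6pc3, the widely expressed glucose-6-phosphatase gene, had a log2 fold change of 0.0079 (adjusted p = 0.982), and the liver and kidney gene G6pc did not pass the filter.

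Abcc8, the channel subunit gene (chromosome 7, 46104523 to 46180033, minus strand), ran from 2.22 through 4.15 to 7.83 CPM at baseline and from 3.86 through 6.74 to 9.06 CPM at day 7. The groups overlapped widely, with 2 of 8 day 7 mice above every baseline mouse. The log2 fold change of 0.57 (SE 0.28, adjusted p = 0.170) did not pass the test. Its paralog Abcc9, a channel subunit of muscle and vessels, had a log2 fold change of -0.22 (adjusted p = 0.612).

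Slc30a8, the granule zinc transporter gene (chromosome 15, 52295553 to 52335798, plus strand), ran from 1.48 through 5.47 to 7.52 CPM at baseline and from 4.87 through 8.00 to 11.02 CPM at day 7. In 5 of 8 day 7 mice it was above every baseline mouse. Its log2 fold change of 0.73 (SE 0.28, adjusted p = 0.0762) missed the threshold in edgeR and passed it in DESeq2 (0.72, adjusted p = 0.0499). Of the related zinc transporter genes, Slc30a2 was called lower (log2 fold change -0.72, adjusted p = 0.0126) and Slc30a1 had a log2 fold change of -0.17 (adjusted p = 0.254).

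The proinsulin convertases differed in their estimates. Pcsk2 (chromosome 2, 143546156 to 143816285, plus strand) ran from 4.08 through 12.1 to 19.03 CPM at baseline and from 12.4 through 19.1 to 29.5 CPM at day 7. Only 4 of 8 day 7 mice exceeded every baseline mouse, although all 8 were above the baseline median. Pcsk2 was called, at a log2 fold change of 0.79 (SE 0.24, adjusted p = 0.0254). The call was lost without baseline mouse 3 (0.72, adjusted p = 0.0521) and without day 7 mouse 15 (0.67, adjusted p = 0.0618). Its exons share 260 and 99 bases with the antisense genes Pcsk2os1 and Pcsk2os2, and the strand setting of the counting was not given in the sources used here.

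Pcsk1 (chromosome 13, 75089826 to 75134861, plus strand) ran from 8.77 through 11.4 to 16.7 CPM at baseline and from 8.02 through 11.7 to 18.3 CPM at day 7. The groups covered nearly the same range, with 1 day 7 mouse above every baseline mouse and 2 below. The log2 fold change was 0.08 (SE 0.16, adjusted p = 0.777), and its 95% interval of -0.26 to 0.42 did not reach the 1.5-fold threshold in either direction. The difference between the Pcsk1 and Pcsk2 changes was not itself tested.

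**Figure D1:**
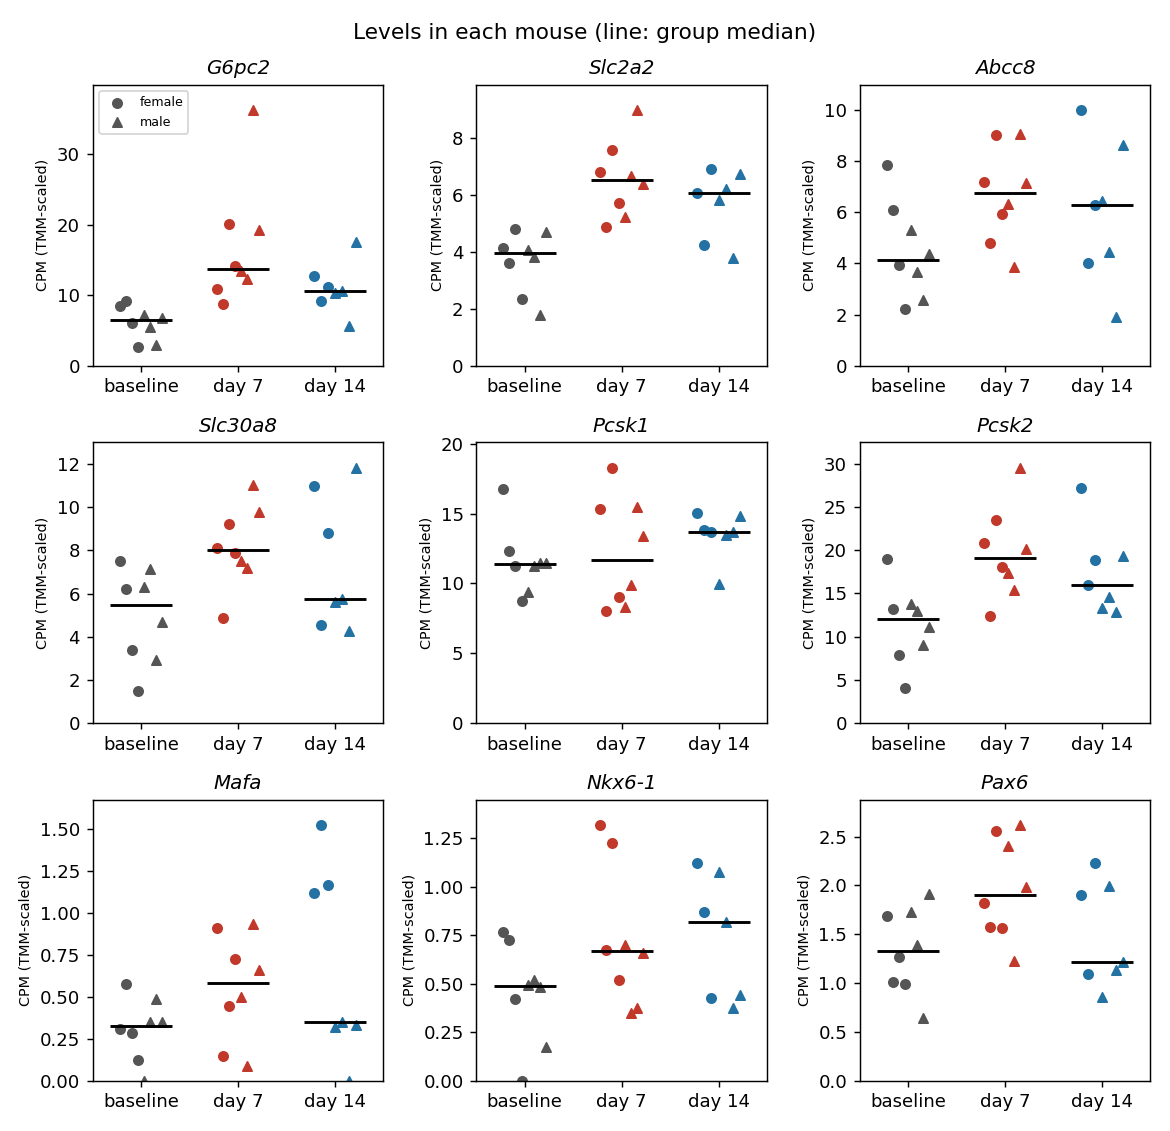
Level of each of the 9 genes in each mouse, in TMM-scaled CPM on a linear axis that starts at 0, by time point, with circles for females, triangles for males and a line at the group median. All 8 day 7 values of Slc2a2 (4.87 to 8.96 CPM) lie above the highest baseline value of 4.79 CPM, whereas the Pcsk1 groups overlap throughout.

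The transcription factors were the lowest genes of the set. Pax6 (chromosome 2, 105668900 to 105697364, plus strand) ran from 0.646 through 1.33 to 1.92 CPM at baseline and from 1.23 through 1.90 to 2.61 CPM at day 7. In 4 of 8 day 7 mice it was above every baseline mouse, and its log2 fold change of 0.56 (SE 0.24, adjusted p = 0.109) did not pass the test.

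Mafa, an activator of insulin transcription (chromosome 15, 75745490 to 75748228, minus strand), had 0 to 4 counts in baseline mice, 1 to 10 in day 7 mice and 0 to 14 in day 14 mice. Nkx6-1, a factor of beta cell identity (chromosome 5, 101658139 to 101664996, minus strand), had 0 to 5 counts in baseline mice, 4 to 13 in day 7 mice and 3 to 10 in day 14 mice. Most of these counts were close to the 3 counts that serve as a detection floor, so only large differences were detectable at this depth. Without the filter, the day 7 log2 fold changes were 0.89 for Mafa (adjusted p = 0.349) and 0.66 for Nkx6-1 (adjusted p = 0.350). At day 14 they were 1.11 (adjusted p = 0.485) and 0.75 (adjusted p = 0.550).

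Genes of the same pathways were counted from lists of known islet genes. Of 25 genes of stimulus-secretion coupling, the steps that join glucose to granule release, 18 were tested at day 7, 8 with a positive and 10 with a negative change, and 1 was called, Ucn3 (urocortin 3, a peptide of mature beta cells), at 1.03 on the log2 scale (adjusted p = 0.0463). Other genes of that list with small p-values were Vamp2, a granule fusion protein gene (-0.41, adjusted p = 0.0186, below the fold threshold) and Tmem27, a beta cell surface protein gene (0.85, adjusted p = 0.0998). The median of this list was -0.047, and its genes lay on both sides of 0.

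Of 18 genes of prohormone processing and granule cargo, 17 were tested, and 6 were called higher and 3 lower. The 6 were Cpe, Scg2, Scg3, Scg5, Chga and Chgb, which are granule proteins and a carboxypeptidase shared by endocrine and neuroendocrine cells. Cpe, which trims the residues that the convertases leave, rose by 0.89 on the log2 scale (SE 0.16, adjusted p = 7.54e-04). The 3 lower genes were the convertases Furin and Pcsk6 and the granule membrane phosphatase gene Ptprn2. Furin fell by 0.62 and Pcsk6 fell by 0.69 on the log2 scale (adjusted p = 2.09e-06 and 8.05e-04). Ptprn2 fell by 0.77 on the log2 scale (adjusted p = 5.11e-07), and its baseline median of 217 CPM was far above that of each of the 9 genes.

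Of 18 islet transcription factor genes counted, 12 were tested at day 7, and Rfx6 (1.06, adjusted p = 0.0142) and Isl1 (0.87, adjusted p = 0.0354) were called higher. Glis3 had a log2 fold change of 0.44 (adjusted p = 0.0222), below the fold threshold. Pax4 was not analysed here. Of 8 islet hormone genes, 7 were tested and 3 were called higher, Iapp (amylin, 1.11, adjusted p = 0.00475), Ins1 (1.04, adjusted p = 0.0116) and Ins2 (0.97, adjusted p = 0.0132). Pyy, a peptide of other islet cells, had a log2 fold change of 1.06 (adjusted p = 0.0667). All 7 tested hormone genes, including those of other islet cells, had a positive change, from 0.48 to 1.11 with a median of 1.04. Of all genes, 53.7% had a positive change.

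Other cell types moved at day 7 too. The summed level of 8 acinar markers had a median of 267400 CPM at baseline and 160900 CPM at day 7, with 3 of the 8 called lower (Cpa1, Ctrb1 and Pnlip). As a share of all counts in a library, without scaling, these markers had a median of 23.6% at baseline and 18.8% at day 7. All 6 pan-endocrine markers, the same granule genes as above, and all 6 fibroblast markers were called higher. So were 4 of 5 macrophage markers (C1qa, C1qb, Adgre1 and Cd68), with a summed median of 32.6 CPM at baseline and 68.8 CPM at day 7. The ductal markers were mixed: 2 of 6 were called higher (Krt7 and Spp1), but 3 of the 6 had a negative change. Their median log2 fold change was 0.033. The 2 enteroendocrine markers counted, of 4 listed, reached 0.280 CPM summed, and the 4 small intestine and 5 neuron markers reached 2.80 and 2.32 CPM. Cck, Sct, Cdx1 and Cdx2 were not among the symbols counted. These are sums of several genes in the highest mouse, and they exceeded the highest baseline level of the single gene Pax6, 1.92 CPM (day 7 highest 2.61 CPM). The group medians were lower, 1.305 to 1.583 CPM for the small intestine sum and 0.875 to 1.15 CPM for the neuron sum. Admixture of duodenal tissue was not tested. The part of the acinar, fibroblast, macrophage and endocrine shifts, and of the 2 ductal calls, in the levels of the 9 genes was not tested beyond the fit with the hormone level given below.

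The second comparison, day 14 against baseline, asked which changes remained. All 7 tested genes again had a positive log2 fold change, with a median of 0.59 against 0.0062 over all genes, and none of the 7 was called, by edgeR or DESeq2. In edgeR, 3 of the 7 had an unadjusted p under 0.05. Of all genes tested, 0.787% were called, 13.3% had an unadjusted p under 0.05 and 51.6% had a positive change. The baseline mice are the same in the day 7 and day 14 comparisons, so the values of both days are not independent.

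At day 14, Slc2a2 ran from 3.77 through a median of 6.05 to 6.91 CPM and G6pc2 from 5.65 through 10.6 to 17.6 CPM. In 5 of 7 mice Slc2a2 was above every baseline mouse, and in 6 of 7 mice G6pc2 was. The log2 fold changes were 0.63 for Slc2a2 (SE 0.18, adjusted p = 0.0762) and 0.85 for G6pc2 (SE 0.33, adjusted p = 0.246). Slc2a2 passed the test when mouse 23, which had its lowest day 14 level, was left out (0.71, adjusted p = 0.0452). Leaving out the lowest mouse of a group raises the estimate by construction. Mouse 23 also had the lowest day 14 levels of the hormones, G6pc2, Slc30a8, Pcsk2 and Abcc8.

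Slc2a2 is also a liver gene, and its highest day 14 level, 65 counts or 6.91 CPM, was in mouse 19, the mouse with the most Alb. Without mice 19 and 21, the day 14 log2 fold change of Slc2a2 was 0.56 (adjusted p = 0.258) and the day 7 change remained 0.83 (adjusted p = 0.00177). No call of the 9 genes changed between these fits.

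Several of the lowest day 7 levels were in the same mouse. Mouse 10 had the lowest day 7 CPM of G6pc2, Slc2a2, Slc30a8, Pcsk1 and Pcsk2, and the lowest day 7 hormone level (330 CPM). It also had the highest TMM factor of all libraries (1.40, lowest 0.769). Its summed lymphocyte (196 CPM) and adipocyte (89.9 CPM) markers were the highest of day 7. The part of mouse 10, or of its scaling, in the levels was not tested beyond leaving the mouse out, which changed no call of the 7 genes.

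Pcsk2 ran from 12.8 through 15.99 to 27.2 CPM at day 14, and all 7 mice were above the baseline median of 12.1 CPM. Its log2 fold change was 0.62 (SE 0.25, adjusted p = 0.267). Pcsk1 ran from 9.996 through 13.7 to 15.02 CPM, inside the baseline range, at a log2 fold change of 0.24 (SE 0.17, adjusted p = 0.597).

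Slc30a8 ran from 4.27 through 5.74 to 11.8 CPM at day 14, with 3 of 7 mice above every baseline mouse (log2 fold change 0.59, SE 0.29, adjusted p = 0.395). Abcc8 ran from 1.88 through 6.27 to 9.98 CPM and so extended past the baseline range on both sides (0.42, SE 0.30, adjusted p = 0.590). Pax6 ran from 0.860 through 1.22 to 2.23 CPM, with a median below that of baseline (0.17, SE 0.26, adjusted p = 0.863). Of the 54 tested genes in the 4 lists of islet genes, none was called at day 14 by edgeR, and 13 had an unadjusted p under 0.05.

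Day 14 was also compared directly with day 7. None of the 7 genes was called, by edgeR or DESeq2, and none had an unadjusted p under 0.05 in edgeR, against 0.377% of all genes called and 14.1% with such a p. The estimate was negative for 6 genes (46.3% of all genes had a positive one), from -0.61 for G6pc2 (SE 0.29, adjusted p = 0.358) to -0.14 for Slc30a8 (SE 0.27, adjusted p = 0.855), and positive for Pcsk1 (0.16, SE 0.16, adjusted p = 0.699). A return of these genes toward baseline between the days was therefore not shown, and neither was its absence: the 95% interval for G6pc2 ran from -1.22 to 0.0058 and that for Slc2a2 from -0.55 to 0.16. The sign for Pcsk1 turned with scaling by the total count (-0.073).

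Females and males were compared with the time point as covariate. None of the 7 genes was called, by edgeR or DESeq2, or had an unadjusted p under 0.05 in edgeR, against 0.23% of all genes called and 9% with such a p. The log2 fold changes of males against females lay between -0.20 (Abcc8) and 0.21 (G6pc2), with adjusted p-values of at least 0.882. The change at day 7 was also compared between the sexes by an interaction term, for which 0.00773% of all genes were called. No interaction of the 7 genes was called, and the widest estimate was 0.80 for G6pc2 (SE 0.62, adjusted p = 0.947), whose highest day 7 level was in a male. For day 14, 0% of all genes were called, and the interactions of the 7 genes ran from -0.64 (Pax6) to 0.19 (G6pc2), all with an adjusted p of 1.

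The genes were then set against the hormone level, since pieces of pancreas can differ in how much islet they hold. The summed level of Ins1, Ins2 and Iapp ran from 96.2 through a median of 299 to 388 CPM at baseline, from 330 through 552 to 938 CPM at day 7 and from 292 through 427 to 628 CPM at day 14. In 7 of 8 day 7 mice and 5 of 7 day 14 mice it was above every baseline mouse. The hormone level thus moved with the time points in the same direction as G6pc2 and Slc2a2.

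Across the 23 mice, 5 of the 7 genes correlated with the log2 hormone level after adjustment over all genes, where 0.82% of genes had a called positive correlation. Pcsk2 had a Pearson r of 0.949 (Spearman rho 0.915) and Slc30a8 of 0.947 (rho 0.928), which ranked 2 and 3 by r among 12192 genes. G6pc2 had an r of 0.917 (rho 0.927). The permutation p was 1e-05 for each of the 3, for r and for rho, the smallest that 100000 permutations can give, and the adjusted p was 0.00642 for r and 0.00871 for rho. Abcc8 had an r of 0.809 (rho 0.837, permutation p = 1e-05 for both, adjusted p = 0.00642 and 0.00871) and Slc2a2 an r of 0.807 (rho 0.829, permutation p = 4e-05 and 2e-05, adjusted p = 0.0128 and 0.0136).

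Pax6 followed the hormone level less closely (r 0.643, rho 0.644, permutation p = 7.7e-04 and 0.00102, adjusted p = 0.0552 and 0.0726). Pcsk1 had the lowest values of the set (r 0.457, rho 0.451, permutation p = 0.0263 and 0.0318, adjusted p = 0.240 and 0.246) and stood at rank 704. Scaling by the total count gave higher values for both (Pax6 r 0.748, rho 0.796, permutation p = 3e-05 for both, adjusted p = 0.00246 and 0.00178; Pcsk1 r 0.681, rho 0.657, permutation p = 2.3e-04 and 8.5e-04, adjusted p = 0.00541 and 0.00561), with 4719 genes called in place of 100. All points share libraries and scaling, and the time points differ in both measures.

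Without the mice farthest from the median hormone level, baseline mouse 4 and day 7 mouse 15, Slc30a8 (r 0.914), Pcsk2 (0.892) and G6pc2 (0.879) remained called. Abcc8 (0.765) and Slc2a2 (0.719) did not, both at a permutation-based adjusted p of 0.0646. Calls fell over all genes too: 12 of 12192 had a called positive correlation in this setting, against 100 with all mice. Within each time point Slc30a8 had an r of 0.975 at baseline, 0.897 at day 7 and 0.974 at day 14, and Pcsk2 one of 0.961, 0.905 and 0.801. G6pc2 had an r of 0.794, 0.915 and 0.921 and Abcc8 of 0.783, 0.845 and 0.939. Slc2a2 had an r of 0.508 at baseline, 0.733 at day 7 and 0.874 at day 14, and Pcsk1 of 0.538, 0.693 and 0.295, so these 2 genes had the lowest r at baseline besides Pax6 (0.445). No within-group correlation was called, the smallest adjusted p in the exact permutation tests being 0.772 for these genes, while 4 genes at baseline, 6 at day 7 and 5 at day 14 had an unadjusted exact p of r under 0.05. Few mice limit the exact p: at day 14, Slc30a8 and G6pc2 had one of 3.97e-04, adjusted to 0.968. The lack of calls therefore does not tell whether these genes correlate within a time point.

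**Figure D2:**
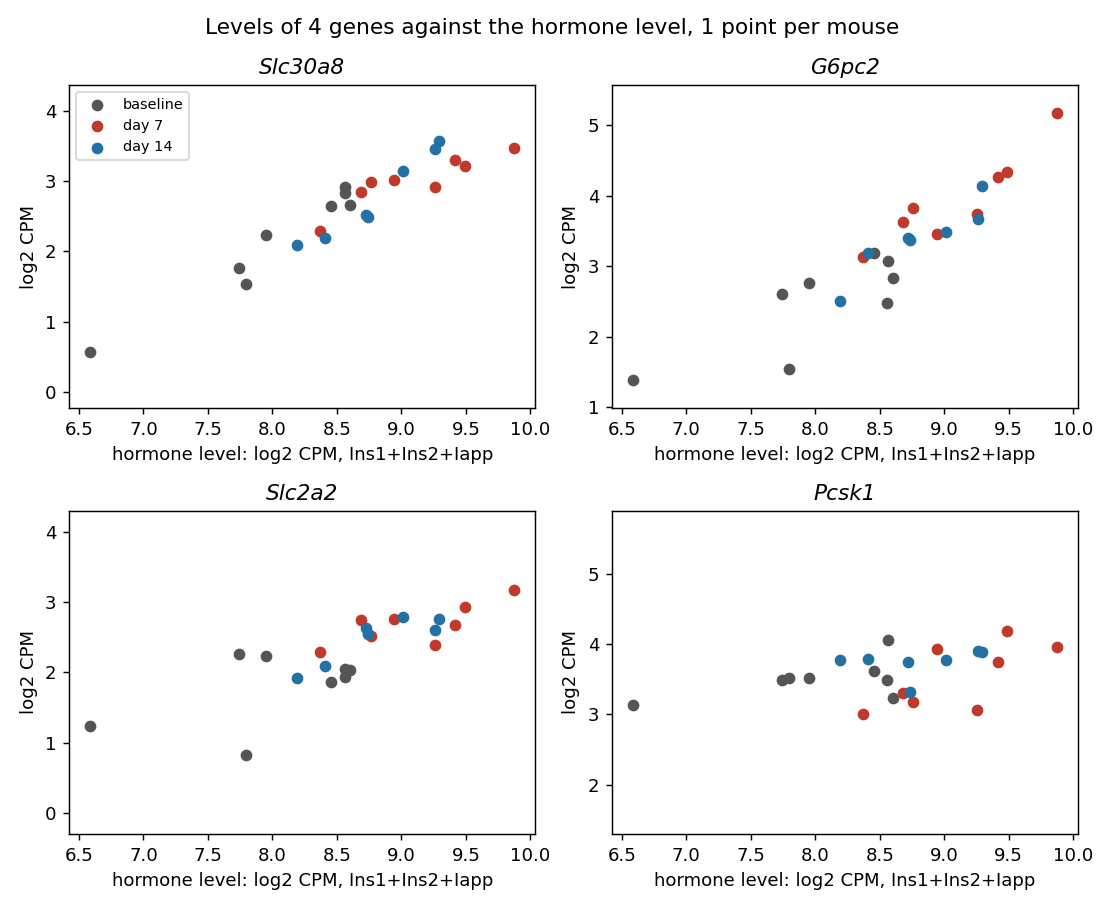
Level of 4 of the genes in each of the 23 mice (log2 CPM, vertical axis) against the hormone level (log2 CPM of Ins1, Ins2 and Iapp summed, horizontal axis), coloured by time point and drawn over the same vertical span. Slc30a8 (r 0.947) and G6pc2 (r 0.917) rise along a line through all time points, while r is lower for Slc2a2 (0.807) and Pcsk1 (0.457). The slopes of 0.45 for Slc2a2 and 0.38 for Pcsk1 come from a fit with sex and time point as terms. They are not the slopes of the points drawn.

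In a model of sex, time point and hormone level, the slope gives the log2 change in a gene for each log2 step of hormone level. Slopes were close to 1 for Slc30a8 (1.04, SE 0.10), G6pc2 (1.03, SE 0.12), Abcc8 (0.99, SE 0.12) and Pcsk2 (0.86, SE 0.08), with adjusted p-values of 1.5e-05 or less. The estimates were lower for Pax6 (0.52, SE 0.18, adjusted p = 0.692), Slc2a2 (0.45, SE 0.12, adjusted p = 0.285) and Pcsk1 (0.38, SE 0.11, adjusted p = 0.320). The 95% interval for Slc2a2, 0.19 to 0.71, did not overlap the 0.77 to 1.29 of G6pc2, and the difference of the slopes was not itself tested.

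With the hormone level in the edgeR fit, none of the 7 genes was called at day 7, where 4.26% of all genes were, and 1 (Abcc8) had an unadjusted p under 0.05. The estimates stayed positive for G6pc2 (0.36, SE 0.19, adjusted p = 0.245) and Slc2a2 (0.36, SE 0.19, adjusted p = 0.256). They were below 0 for Pcsk2 (-0.07, SE 0.12), Slc30a8 (-0.27, SE 0.15), Pcsk1 (-0.34, SE 0.18, adjusted p = 0.224) and Abcc8 (-0.45, SE 0.19, adjusted p = 0.134), and -0.0028 for Pax6 (SE 0.25). At day 14, where 0.599% of all genes were called, none was called or had an unadjusted p under 0.05, and the estimates ran from -0.33 (Abcc8) to 0.29 (Slc2a2). The hormone level differed between the time points, so the fit splits a shared change between both terms, and it holds only for the RNA of these genes relative to hormone RNA.

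**Figure D3:**
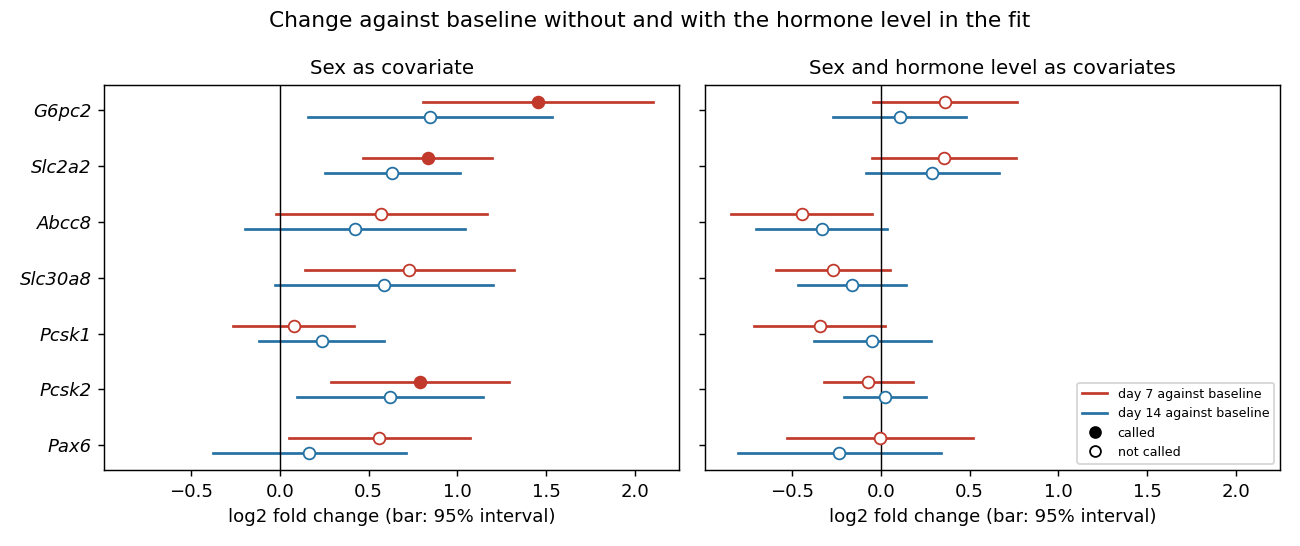
Log2 fold change against baseline (horizontal axis) of the 7 tested genes at day 7 (red) and day 14 (blue), with bars for the 95% interval and filled points for genes called, from the fit with sex (left) and with sex and hormone level (right). With the hormone level, the day 7 estimate of G6pc2 moves from 1.45 to 0.36 and that of Slc2a2 from 0.83 to 0.36, and no point is filled.

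The ratio of each gene to the hormones is another measure, which takes each gene as proportional to the hormones and so need not follow the fit for genes with slopes below 1. For every 1000 counts of Ins1, Ins2 and Iapp, Pcsk1 had 24.1 through a median of 45.4 to 91.1 counts at baseline, 13.6 through 22.5 to 31.1 at day 7 and 23.4 through 26.6 to 46.8 at day 14. The baseline and day 7 ranges overlapped, although the day 7 median lay below every baseline mouse. Abcc8 had medians of 17.5, 11.5 and 12.2 per 1000 hormone counts at baseline, day 7 and day 14, again with overlapping ranges. The medians of G6pc2 were 24.1, 28.1 and 24.2, with overlapping ranges. Slc2a2 had 8.01 through 10.7 to 24.4 per 1000 hormone counts at baseline, 8.52 through 11.9 to 16.2 at day 7 and 9.86 through 12.9 to 14.7 at day 14, so that its medians rank upward while its mean is highest at baseline (14.5, 12.0 and 12.5). Pcsk2 (39.1, 35.0 and 36.5), Slc30a8 (16.95, 14.6 and 14.6) and Pax6 (4.46, 3.58 and 3.20) had their highest median at baseline.

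**Figure D4:**
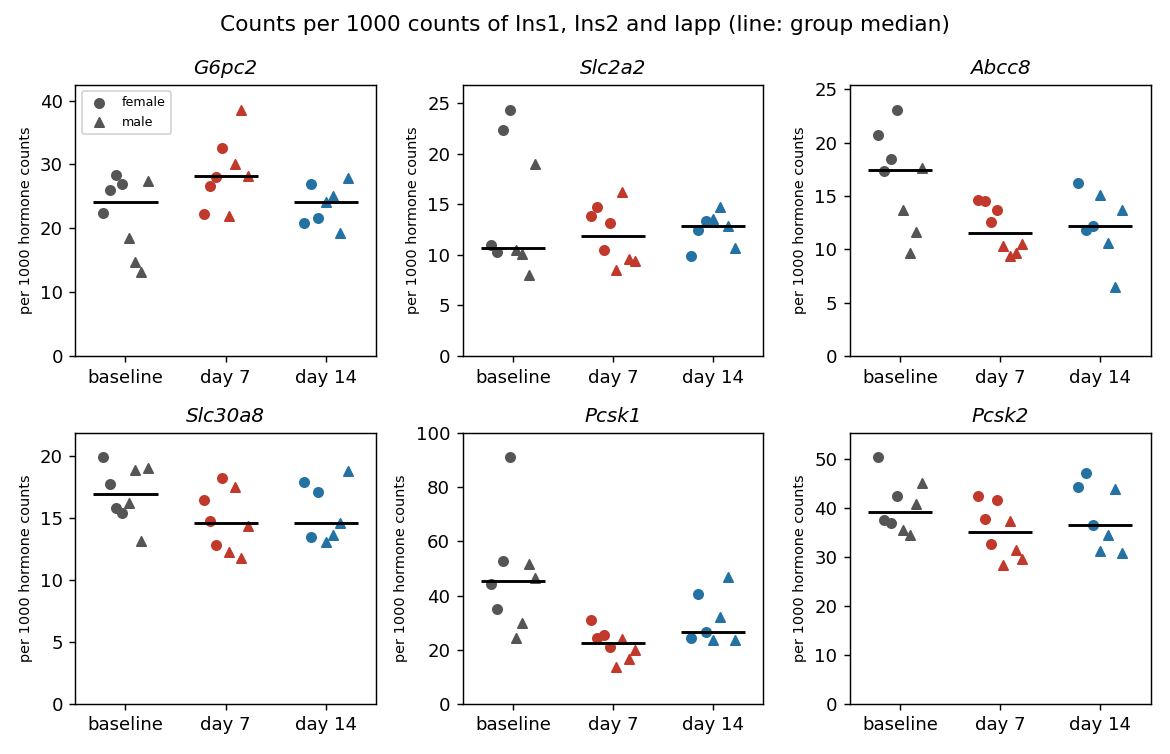
Counts of 6 of the genes for every 1000 counts of Ins1, Ins2 and Iapp in each mouse, on a linear axis that starts at 0, with circles for females, triangles for males and a line at the group median. The Pcsk1 median is 45.4 at baseline and 22.5 at day 7, while the G6pc2 medians lie between 24.1 and 28.1.

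The 7 tested genes also varied together among themselves. Over their 21 pairs, r across the 23 mice ran from 0.303 (Pcsk1 with Pax6) through a median of 0.701 to 0.940 (Pcsk2 with Slc30a8), and Slc2a2 with G6pc2 had an r of 0.903. The mean r of a gene with the other 6 was highest for Pcsk2 (0.762) and lowest for Pcsk1 (0.425). The genes outside the set with the highest mean r over its 7 tested genes were Ins1 (0.795), Ins2 (0.783), Iapp (0.779), Chga (0.776), Scg2 (0.772), Sphkap (0.771), Chgb (0.765), Scg3 (0.757), Slc7a14 (0.732) and Syt13 (0.715). Of these 10, the 3 hormones and 4 granins (Chga, Chgb, Scg2 and Scg3) were called higher at day 7. Sphkap, Slc7a14 and Syt13 had day 7 log2 fold changes of 0.83, 0.78 and 0.60 (adjusted p = 0.0518, 0.0741 and 0.0901). These correlations are descriptions over mice that also share the time points.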

How the data were processed

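RNA of 23 pancreas samples, 1 mouse each, was sequenced by the authors after ribosomal depletion with a stranded kit, as paired 75 bp reads. Per the labels and methods, the authors trimmed reads with Trim Galore and cutadapt, aligned them to mm10 with STAR 2.5.2a and counted uniquely mapped fragments per gene with featureCounts, so the deposited values are raw counts. The annotation and strand setting of that counting are not given in the sources used here. Uniquely mapped reads undercount genes with near-identical copies.

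Counts were fitted in edgeR 4.0.16 (R 4.3.3) over all 23 mice with time point and sex as terms (filterByExpr by time point, TMM, robust quasi-likelihood F test, two-sided), and p-values were adjusted by Benjamini-Hochberg over 12195 genes. The interaction of sex and time came from a fit of 6 group means over 12933 genes. Calls needed a 1.5-fold change and an adjusted p no higher than 0.05, as in the study, and interactions by the adjusted p alone. The SE was the log2 fold change over the square root of F, and 95% intervals used a t distribution with 19 residual degrees of freedom (18 with the hormone level). Log2 CPM carried a prior count of 2. Correlations with the log2 CPM of summed Ins1, Ins2 and Iapp used 100000 permutations of the mice, and exact permutation within a time point, for 12192 genes. Total counts per mouse (7059890 to 9567446) set the precision, and 3 counts, the detection floor, corresponded to 0.225 to 0.522 TMM-scaled CPM per library. No libraries of a group agreed within sampling noise, the lowest chi-square per degree of freedom being 4.33. Gene positions and exon lengths came from the GENCODE annotation of GRCm38. The fitting and correlation code was tested on simulated data.

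The 9 genes and the lists of pathway genes and markers were chosen with earlier results of these data known. All 9 genes are described. From each pathway list, up to 4 genes with the smallest day 7 p-values are given with values, and the paralogs as values only. Some genes that this rule selects are not reported here. The 10 genes most like the set were those with the highest mean r. Alternatives were other scaling, filters, covariates, DESeq2 1.42.0 and leaving out each mouse, and 1 was added after seeing the data (leaving out both day 14 mice with liver transcripts).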

Additional observations from a re-analysis of the deposited data

Results flagged for a closer look

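Levels of the 9 genes, their ratios to hormone counts and their groups were screened for a mouse far from the others of its group, and 4 of 54 groups met the criterion, where chance gives about 1 in 20. For G6pc2, day 7 mouse 15 was high at 36.2 CPM, with the next mouse at 20.2 CPM. This mouse also had the highest hormone level of all. For Pcsk1, baseline mouse 1 was high at 16.7 CPM (next 12.3 CPM), and day 14 mouse 21, one of the mice with liver transcripts, was low at 9.996 CPM (next 13.5 CPM). The ratio of Pcsk1 to the hormones was high in baseline mouse 4, at 91.1 counts per 1000 counts of Ins1, Ins2 and Iapp (next 52.7). That mouse had the lowest hormone level of all, 96.2 CPM.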

How the results depend on the processing

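No paired analysis was possible because each mouse has its own number and no number is shared between time points. The choice of scaling and the hormone term moved the counts of called genes. Scaling by the total count shifted the median log2 fold change of all genes to 0.475 at day 7, 0.219 at day 14 and -0.255 for day 14 against day 7, and under it 6, 4 and 2 of the 7 genes were called. The 2 were G6pc2 (-0.84) and Pax6 (-0.63), and the sign of Pcsk1 turned to -0.073. With the hormone level in the fit, 0 genes were called at day 7. Signs then turned at day 7 for Slc30a8 (-0.27), Pcsk1 (-0.34), Pcsk2 (-0.07), Pax6 (-0.0028) and Abcc8 (-0.45), at day 14 for Slc30a8 (-0.16), Pcsk1 (-0.048), Pax6 (-0.23) and Abcc8 (-0.33), and for day 14 against day 7 for Slc30a8 (0.11), Pcsk2 (0.094) and Abcc8 (0.11). Leaving out 1 mouse at a time gave 2 to 4 called genes at day 7 and 0 to 1 at day 14, and Pcsk1 at day 7 ranged from -0.027 to 0.17, the lowest without day 7 mouse 11. G6pc2 and Slc2a2 stayed called at day 7 without any single mouse. Slc30a8 passed the day 7 test in DESeq2, with total counts without the 20 most abundant genes (0.81, adjusted p = 0.0363) and without baseline mouse 1 (0.86, adjusted p = 0.0485). The 5 called correlations with the hormone level became 7 with scaling by the total count (4719 genes called in all, against 100). Without single mice they were 5 to 6, beside 42 to 151 genes called in all. Pax6 was gained without baseline mouse 8, day 7 mouse 10 or day 14 mouse 24. Only 3 were called without the mice at the ends, where 12 genes were called in all. Within baseline, day 7 and day 14, 0 were called, and 0 of all genes had a called positive correlation. Few mice limit the exact p there. The causes were not tested.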

Other observations

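The islet hormones outside the beta cell varied between single mice. Ppy, the pancreatic polypeptide gene, stood at 14.8 CPM in day 7 mouse 10 and 11.5 CPM in day 7 mouse 11, against a day 7 median of 1.53 CPM, and at 19.8 CPM in day 14 mouse 21, against a day 14 median of 1.23 CPM. Baseline mouse 5 had 9.62 CPM, against a baseline median of 0.631 CPM. Gcg, the glucagon gene, was lowest of its group in mouse 10 (11.9 CPM, day 7 median 125 CPM) and in mouse 21 (5.91 CPM, day 14 median 112 CPM). Mice 10 and 21 also had the highest summed lymphocyte markers of their group, 196 CPM and 112 CPM.

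G6pc, the glucose-6-phosphatase gene of liver and kidney, had 34 counts in day 14 mouse 19, the mouse with 3421 counts of Alb. With the hormone level in the fit, Abcc8 was lower in males by a log2 fold change of -0.42 (SE 0.12, unadjusted p = 0.00162, edgeR adjusted p = 0.142), which did not pass the correction, against -0.20 without it.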
